A study of Mus musculus with 9 samples.

Results

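Gene expression was compared between wild type regulatory T cells (Tregs) and Tregs in which a CD4 cre recombinase had made a conditional Sirt1 knockout, called CD4-cre. The comparison takes the 3 arrays that the titles give to that knockout and the 3 arrays titled as wild type, 6 of the 9 arrays of the series, across all genes. Every array carries the strain name C57BL6 and holds total RNA of CD4+CD25+ cells separated with magnets. The title of the series names its subject, the effect of Sirt1 targeting on what Tregs do. The other 3 arrays, called Foxp3-cre, are from the conditional knockout by a Foxp3 cre recombinase and enter here only through the shared estimate of the spread and where values are set side by side. Which part of Sirt1 was deleted, whether the wild type mice carried a Cre or a marked Sirt1 allele, and the age of the mice are not stated in the labels. A Cre under CD4 control acts from the thymus onward in T cells in general, so conventional T cells and cells developing into Tregs lose the marked segment too.

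Sirt1 is an NAD-dependent enzyme that removes acetyl groups from histones and from transcription factors. Foxp3, the transcription factor that defines Tregs, is one of the acetylated proteins it is known to act on, as are p53, the p65 subunit of NF-kB and FOXO factors. Tregs restrain other immune cells through CD25, the alpha chain of the interleukin-2 receptor, through CTLA-4 and through secreted factors, and they express few effector cytokines.

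Signals are log2 values, so that a difference of 1 is a 2-fold change, and changes are given as CD4-cre minus wild type. The array of wild type replicate 2 was unlike the rest. It correlated with them at 0.982 to 0.987 over all probe sets, against 0.992 or more among the others. The 5' minus 3' signal of beta-actin, a measure of RNA integrity and labelling, was -1.53 on that array and -0.68 to -0.45 on the others. It held the lowest of the 9 values for 35.9% of the 7436 genes tested and the highest for 23.5%, whereas the other 5 arrays compared here held the lowest for 4.18% to 10.6% and the highest for 6.04% to 13.8%. Changes and calls are therefore given with all arrays and, beside them, without this array.

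The level of Sirt1 did not separate the groups. Its probe set read 7.91, 6.77 and 7.90 on wild type replicates 1 to 3 and 7.69, 7.59 and 7.59 on the CD4-cre arrays. The low value belongs to wild type replicate 2, and the CD4-cre values lay below both of the other wild type arrays. The change was 0.10 (SE 0.26) with an adjusted p of 0.882 from limma, and -0.28 (SE 0.07) with an adjusted p of 0.0730 without that array, so the direction turned with it. Whether this probe set lies inside the deleted segment is not known here, so these signals check the labels neither way. Of the 20 tested genes nearest to Sirt1 in gene order, 10 on each side, 0 were called in either fit, and their changes ran from -0.14 to 0.54.

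Genes typical of Tregs were bright in both groups, apart from Ikzf2. That gene read 5.10, 4.17 and 5.04 in wild type and 5.14, 5.38 and 5.51 in CD4-cre. Its change of 0.57 was not called (adjusted p 0.310), and it was 0.28 without wild type replicate 2. Foxp3 read 9.16, 9.68 and 9.34 in wild type and 9.68, 9.69 and 9.62 in CD4-cre, which put it between the 90.8th and 94.2nd percentile of all probe sets on the 6 arrays. Wild type replicate 2 reached the level of the CD4-cre arrays for Foxp3, and the change of 0.27 was not called (adjusted p 0.529; 0.41 and 0.239 without that array). Il2ra, which encodes CD25, differed by -0.01 (adjusted p 0.962), Cd4 by -0.31 (adjusted p 0.230), Ctla4 by 0.21 (adjusted p 0.472) and Tnfrsf18, the receptor GITR, by 0.17 (adjusted p 0.474). Without wild type replicate 2 the changes of Il2ra, Cd4, Ctla4 and Tnfrsf18 were -0.01, -0.22, 0.12 and 0.11, with none called. The mean signal of 8 T cell markers was 10.56 to 10.73 in wild type and 10.62 to 10.66 in CD4-cre. Xist was dim on all 6 arrays (3.31 to 3.89), and 3 genes of the Y chromosome read 5.24 to 8.55.

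In all, 49 of the 7436 genes tested were called at an adjusted p below 0.05, 0.659% of them. Of these, 17 rose (0.229%) and 32 fell (0.430%), and 9 changed by more than 2-fold. All 49 had CD4-cre arrays that lay wholly beyond the wild type arrays. That holds for 882 genes in the higher direction (11.9%) and for 681 in the lower direction (9.16%) of all genes tested. Without wild type replicate 2, 191 genes were called (2.57%), 56 up (0.753%) and 135 down (1.82%). The 49 were all among them, in the same directions, and they made up 25.7% of the 191. The filter took the mean of all 9 arrays. Between the groups compared, Asns and Pigb reached the level needed for testing only in the CD4-cre mean, and Myo6 and Tmem267 only in the wild type mean. The Foxp3-cre means of Asns, Pigb, Myo6 and Tmem267 (7.46, 4.99, 5.52 and 4.99) reached that level too. The count with all arrays depended on single arrays. Leaving out wild type replicate 1 gave 30 and replicate 3 gave 23. Leaving out the CD4-cre replicates 1, 2 and 3 gave 11, 4 and 18 calls. For the Foxp3-cre replicates 2 and 3 the counts were 25 and 31. Asns, Kif1b, Pink1 and Sytl1 were called in all 9 fits that left out an array. Over all genes tested the median change was 0.03, and 0.003 without wild type replicate 2.

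**Figure D1:**
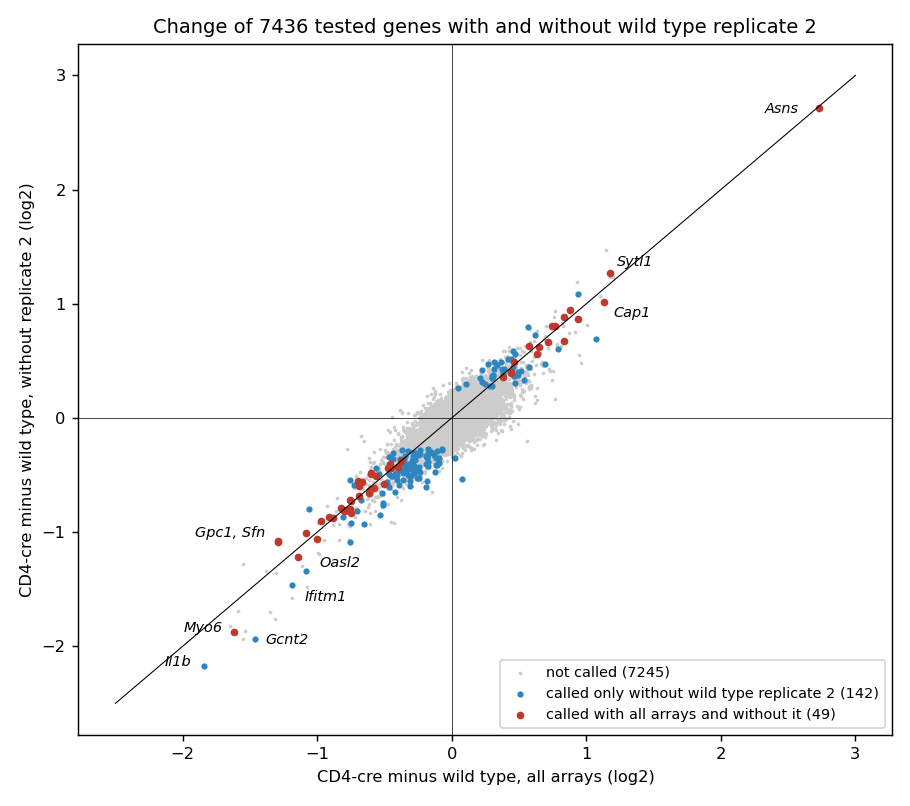
Change of each tested gene (CD4-cre minus wild type, log2) with all arrays on the x axis and without wild type replicate 2 on the y axis, with the line of equal values. The 49 genes called both ways (red) lie on either side of the line, Asns stands far from all others at 2.73 and 2.71, and the 142 called only without that array (blue) are mostly falls.

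Asns, which encodes the enzyme that makes asparagine from aspartate and glutamine, had the largest change of all genes called. It read 4.78, 4.56 and 4.43 in wild type and 7.46, 7.50 and 6.99 in CD4-cre. The groups were more than 2 log2 units apart, with CD4-cre replicate 3 the lowest of the knockout arrays. The change was 2.73 (SE 0.15), a 6.64-fold rise, with an adjusted p of 1.13e-04, and 2.71 without wild type replicate 2. A second Asns probe set gave 2.34 (2.60 without that array). The wild type mean lay below the level needed for testing, a log2 signal of 4.979, so Asns was tested because of its signal in the knockouts.

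Asns is a known target of ATF4, the transcription factor that answers amino acid shortage and other stress, and its promoter is shown because the largest rise belongs to it. The RefSeq promoter table for the assembly GRCm38.p6 gives the 250 bases before its start site, and the promoter of Jdp2, another gene of the same list with the same kind of motif close to its start, is set beside it. Sequences run 5′ to 3′ on the strand of the gene, and capitals mark matches to TGATGNAA, searched on both strands.

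Asns, chr6:7693210-7693459, minus strand: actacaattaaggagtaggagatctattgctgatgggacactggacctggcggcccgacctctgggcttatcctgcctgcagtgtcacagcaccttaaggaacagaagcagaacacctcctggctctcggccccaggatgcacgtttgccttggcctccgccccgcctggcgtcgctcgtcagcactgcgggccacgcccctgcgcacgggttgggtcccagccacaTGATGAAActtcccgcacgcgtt

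Jdp2, chr12:85599166-85599415, plus strand: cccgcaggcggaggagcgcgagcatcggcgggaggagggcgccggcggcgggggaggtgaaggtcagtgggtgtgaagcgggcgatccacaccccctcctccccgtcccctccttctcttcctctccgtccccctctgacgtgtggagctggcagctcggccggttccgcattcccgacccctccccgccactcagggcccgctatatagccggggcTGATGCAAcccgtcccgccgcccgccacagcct

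The match in the Asns promoter begins at position -23 from the start site and the match in the Jdp2 promoter at position -33. Jdp2, a repressor of the AP-1 family, differed by 0.07 (0.18 without wild type replicate 2). Counted by gene, the motif stood in 2.42% of the tested genes with a promoter in the table. Counted by promoter, it stood in 3.45% of all 32851 of the table. It was found in 5 of the 27 members of the ATF4 list with a promoter. Among the 40 called genes with one, 3 held it, 1 that rose and 2 that fell.

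Asns rose without the rest of that list. Of 30 tested genes of the ATF4 and amino acid response, 1 was called up and 0 down in both fits. Among the 30, 10 were higher and 20 lower, with a median of -0.06 (-0.05 without wild type replicate 2) beside 0.03 for all genes. Atf4 itself differed by -0.06 (-0.08 without that array), and Trib3, a pseudokinase that ATF4 induces, by -0.06 (-0.04). Psat1, an enzyme of serine synthesis, turned from 0.06 to -0.06 without that array. The next highest member after Asns was Ddit4, an inhibitor of mTOR complex signalling, at 0.59 (0.43), which was not called. Cytosolic tRNA synthetases, which join amino acids to their tRNAs, ran from -0.26 to 0.19, and 0 of 21 were called in either fit.

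Genes on chromosome 4 made up 11 of the 49, from 466 tested there, which is 2.36% against 0.659% of all genes. Without wild type replicate 2 the count was 25, or 5.36% against 2.57%. No other chromosome with over 100 tested genes exceeded 1.20% with all arrays or 3.75% without that array. Of the 11, 6 rose and 5 fell, so they share a chromosome and not a direction. In the gene order of GRCm38.p6, Sytl1, Wdtc1 and Sfn lay within 5 tested genes of each other. No test of the clustering was made.

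Sytl1, a synaptotagmin-like protein that ties secretory vesicles to Rab27, read 7.20, 7.51 and 7.28 in wild type and 8.52, 8.47 and 8.55 in CD4-cre. Its change of 1.18 (SE 0.10) was a 2.26-fold rise with an adjusted p of 0.00327, and 1.27 without wild type replicate 2. Wdtc1, a protein with WD and TPR repeats, read 5.42, 5.66 and 5.69 against 6.42, 6.35 and 6.30, a change of 0.77 (SE 0.09, adjusted p 0.00726; 0.80 without that array). Sfn, the 14-3-3 protein sigma that p53 induces, went the other way, from 5.87, 6.72 and 6.33 to 4.98, 5.04 and 5.03. Its wild type values spread widely, its knockout values hardly at all, and the change of -1.29 (SE 0.17, adjusted p 0.0148) became -1.08 without wild type replicate 2.

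Pink1, the kinase that marks damaged mitochondria for removal and a gene of chromosome 4 as well, fell with little spread. It read 8.58, 8.65 and 8.53 in wild type and 7.86, 7.75 and 7.70 in CD4-cre, a change of -0.82 (SE 0.08, adjusted p 0.00327; -0.79 without wild type replicate 2). Cap1, which turns over actin filaments, rose on the same chromosome from 9.65, 9.33 and 9.73 to 10.77, 10.74 and 10.59. Its change was 1.13 (SE 0.12, adjusted p 0.00663; 1.01 without wild type replicate 2), and a second probe set gave 1.30 (0.84 without that array, its lowest). Kif1b, a kinesin motor that carries mitochondria and vesicles along microtubules, read 7.54, 7.43 and 7.77 against 8.58, 8.41 and 8.55. Its change was 0.94 (SE 0.10, adjusted p 0.00675), and 0.86 without wild type replicate 2. The other Kif1b probe sets above the level needed for testing gave 0.64, 0.20 and 0.19 (0.69, 0.19 and 0.32 without that array). Hyi, an isomerase of hydroxypyruvate, rose by 0.75 (adjusted p 0.0315; 0.80).

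Other called genes of motors and membrane traffic lay on other chromosomes. Myo6, the myosin that moves toward the minus end of actin, fell from 6.11, 5.24 and 5.90 to 4.34, 4.14 and 3.93. This was the largest called fall, -1.61 (SE 0.21, adjusted p 0.0122), and it came to -1.87 when wild type replicate 2, its dimmest control, was left out. The other Myo6 probe sets were dim and gave -0.40 and -0.01 (-0.47 and -0.13 without that array). Rab4a, a small GTPase of endosome recycling, rose from 5.76, 5.95 and 5.86 to 6.73, 6.78 and 6.56, a change of 0.84 (SE 0.12, adjusted p 0.0180; 0.88 without wild type replicate 2), and its second probe set gave 1.13 (1.17). Map6, which stabilises microtubules, rose by 0.72 (adjusted p 0.0115; 0.67). In a list of 37 tested motor, vesicle and actin genes 5 were called up and 1 down in either fit, but that list was put together with these results known and its count is no independent evidence.

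**Figure D2:**
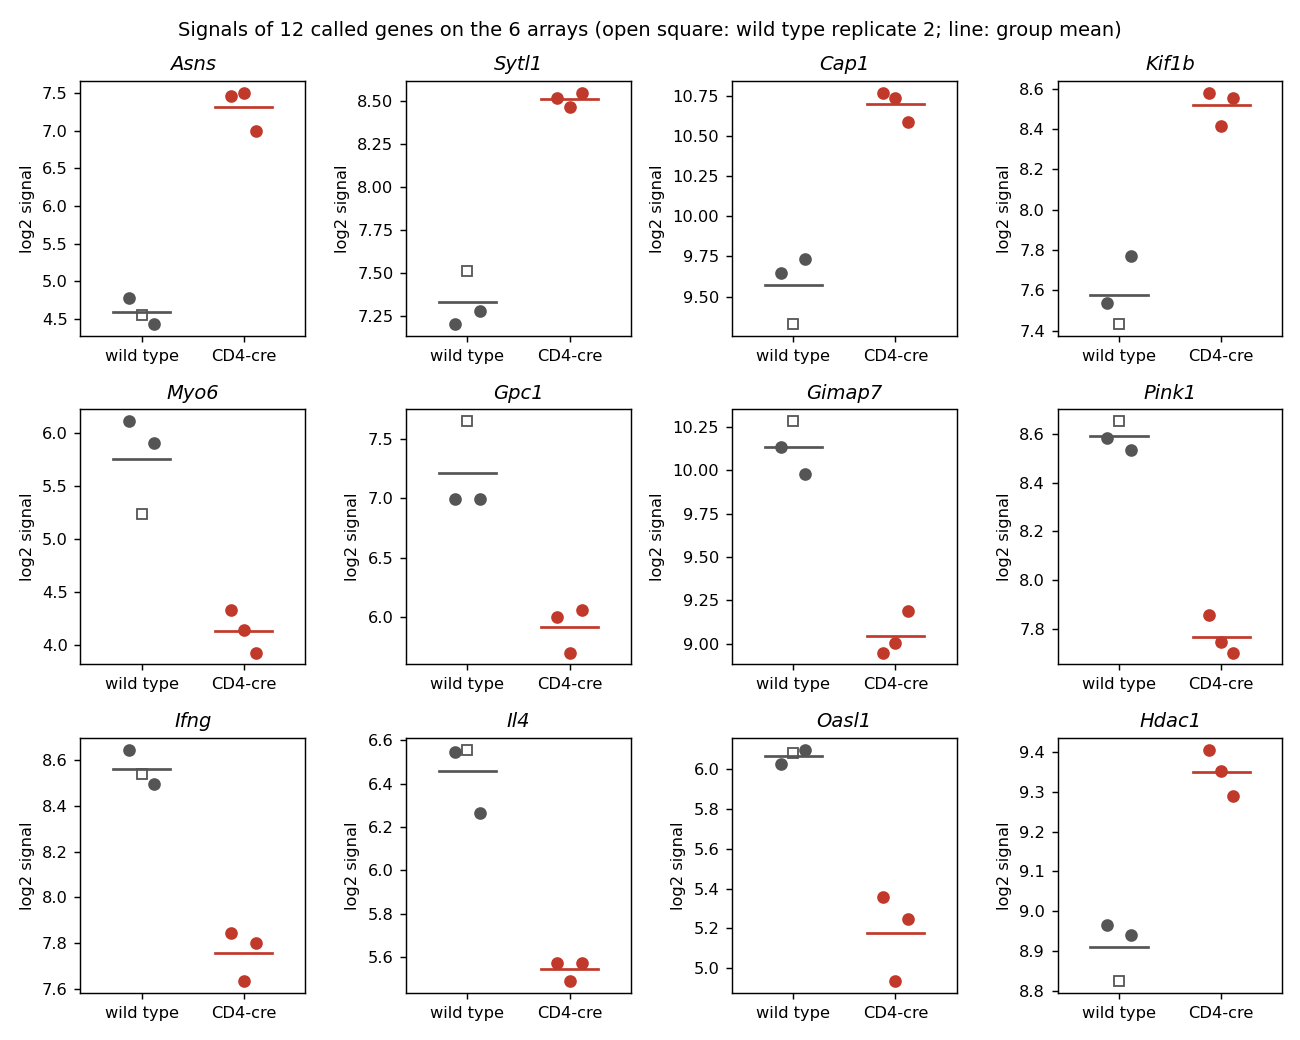
Log2 signals of 12 called genes (y axis, own scale per panel) on the 3 wild type arrays (grey, replicate 2 as an open square) and the 3 CD4-cre arrays (red), with a line at each group mean. In every panel the groups do not overlap, and the distance is greatest for Asns, where the wild type arrays read 4.43 to 4.78 and the knockout arrays 6.99 to 7.50.

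Transcripts of the effector cytokines Il4 and Ifng fell. Il4, the cytokine of type 2 help, read 6.55, 6.56 and 6.26 in wild type and 5.57, 5.49 and 5.57 in CD4-cre, a change of -0.91 (SE 0.10, adjusted p 0.00676), or 1.88-fold lower. Ifng, the cytokine of type 1 help and of NK cells, read 8.65, 8.54 and 8.5 against 7.84, 7.63 and 7.80, a change of -0.80 (SE 0.09, adjusted p 0.00726). Both genes kept their fall without wild type replicate 2 (-0.86 and -0.81). Tbx21, the factor that drives type 1 help, was called only without that array (-0.73, adjusted p 0.0661 with all arrays; -0.59, adjusted p 0.0465 without). Of 14 tested cytokines and helper lineage factors 2 fell and 0 rose (3 and 0 without wild type replicate 2), with 7 members higher and 7 lower and a median of -0.01 (5 higher, 9 lower and -0.07 without that array).

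Genes shared by NK cells and innate-like T cells had a lower mean in 24 of 27 tested cases, with a median of -0.49 (23 of 27 and -0.53 without wild type replicate 2). For 16 of the 27 all CD4-cre arrays lay below all wild type arrays, and for 2 all lay above, beside 9.16% and 11.9% of all genes tested. Only Xcl1, a chemokine of activated T and NK cells, was called with all arrays. It read 8.31, 8.03 and 7.93 in wild type and 7.35, 7.31 and 7.29 in CD4-cre, a change of -0.78 (SE 0.10, adjusted p 0.0135; -0.81 without wild type replicate 2). Cxcr6, a chemokine receptor of memory and NKT cells, joined it without wild type replicate 2 (-0.71 with all arrays, -0.81 without), as did Cd160, a receptor of NK and cytotoxic T cells (-0.76 and -0.54). The NK receptor Klra8 differed most, from 6.46, 7.47 and 6.84 to 5.28, 4.41 and 6.43, but its knockout arrays spread over 2.01 log2 units and it was not called (-1.55, adjusted p 0.260; -1.28 without that array). Klra8 belongs to a family of near-identical genes, whose probe sets can share signal. Gzmk, a granzyme, stood against the list at 0.68 (0.69) and was not called.

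The NK cell markers moved with these genes. All 6 NK markers on the array, each also a member of the list above, were lower in CD4-cre, with 0 called, and their mean signal was 8.0 to 8.09 on the wild type arrays and 6.97 to 7.74 on the CD4-cre arrays. CD4-cre replicate 3 was the highest of the knockouts, and Ncr1, which marks NK cells, read 5.44 to 5.90 in wild type and 5.18 to 5.52 in CD4-cre. Their part in the falls of Ifng, Il4 and Xcl1 was not tested. In bulk RNA fewer cells of a type and less RNA per cell cannot be told apart. Markers of CD8 T cells overlapped between the groups, with means of 5.37 to 5.64 and 5.31 to 5.76.

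Most genes of the interferon response had lower means in CD4-cre, while few were called. Of 38 tested, 33 were lower and 5 higher, with a median of -0.26 (34, 4 and -0.29 without wild type replicate 2). Among all genes tested 9.16% lay lower without overlap and 11.9% higher. For 16 of the 38 the groups did not overlap, 15 with CD4-cre lower and 1 with CD4-cre higher. The exception was Psmb8, a subunit of the immunoproteasome, which differed by 0.10 (0.13 without that array) and was not called. With all arrays 1 was called down and 0 up, and without wild type replicate 2 the counts were 5 and 0. Oasl1, a member of the oligoadenylate synthetase family that interferon induces, read 6.02, 6.08 and 6.10 in wild type and 5.36, 4.94 and 5.25 in CD4-cre, a change of -0.89 (SE 0.13, adjusted p 0.0168; -0.88 without wild type replicate 2). Its relative Oasl2 read 5.67, 4.98 and 5.83 against 4.50, 4.40 and 4.34 and was called only without wild type replicate 2 (-1.34, adjusted p 0.00901; -1.08, adjusted p 0.0706 with all arrays). Irf9, the DNA-binding part of the interferon-activated complex ISGF3, was called on the same terms at -0.51 (-0.31 with all arrays). Trim30a, an interferon-induced ubiquitin ligase relative, gave -0.50 (-0.32 with all arrays), and Gbp2, an interferon-induced GTPase, gave -0.42. For Irf9 and Trim30a wild type replicate 2 read below all CD4-cre arrays. Another Trim30a probe set above the threshold gave -0.11 with all arrays and -0.23 without wild type replicate 2.

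**Figure D3:**
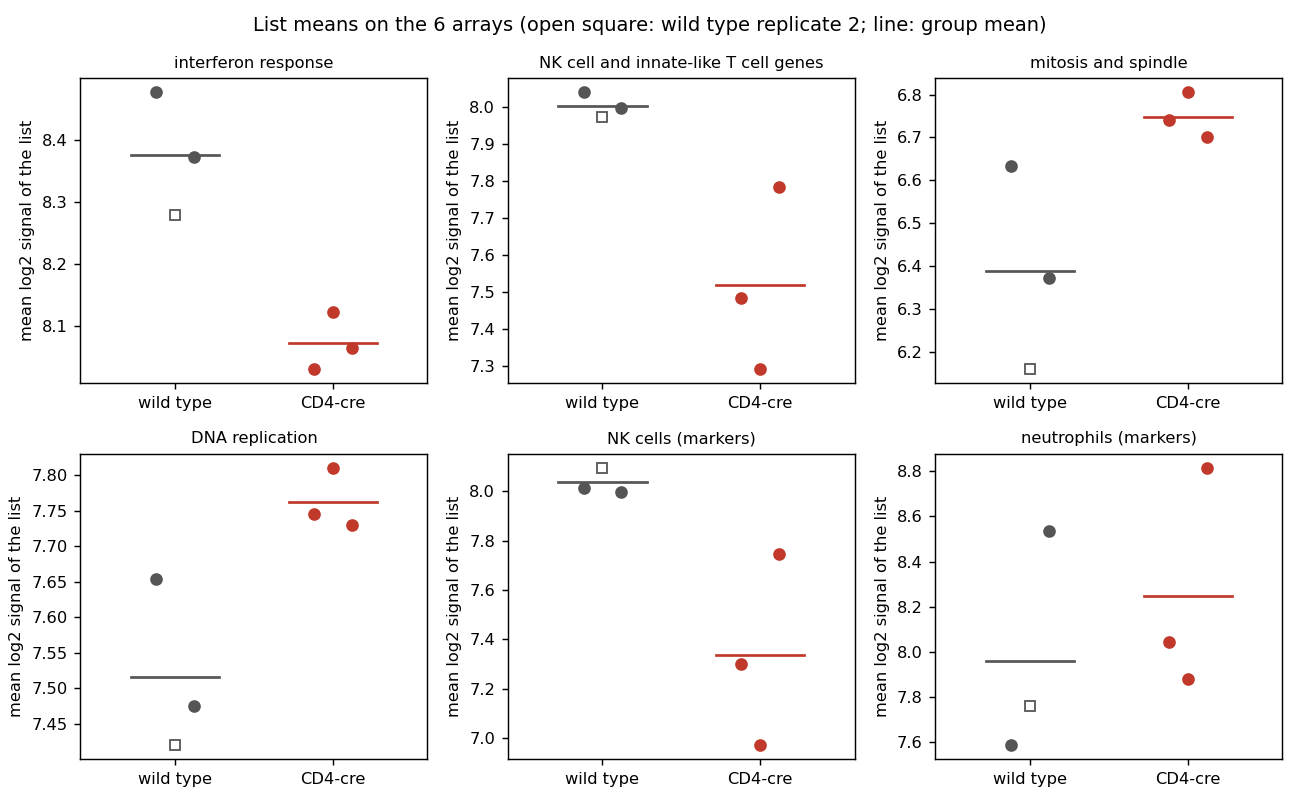
Mean log2 signal of 4 gene lists and of 2 marker lists (y axis, own scale per panel) on the wild type arrays (grey, replicate 2 as an open square) and the CD4-cre arrays (red), with a line at each group mean. The interferon, NK cell, mitosis and DNA replication means do not overlap between the groups, nor do those of the NK markers. The neutrophil markers run from 7.59 to 8.54 in wild type and from 7.88 to 8.81 in CD4-cre. Some lists not shown, such as the Treg signature and the Gimap genes, do not overlap either, while others, such as T cell receptor signalling, do.

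Promoters of this group are shown because most of its members had lower means. Those printed were taken from the members that hold the motif described next. Oasl1 has no promoter in the table. The search took GAAA and GAAA on 1 strand separated by 2 bases, the core of the element that ISGF3 binds, in the same 250 bases and on both strands. Capitals mark the matches, which read as TTTC runs where they lie on the opposite strand.

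Ifit3, chr19:34583279-34583528, plus strand: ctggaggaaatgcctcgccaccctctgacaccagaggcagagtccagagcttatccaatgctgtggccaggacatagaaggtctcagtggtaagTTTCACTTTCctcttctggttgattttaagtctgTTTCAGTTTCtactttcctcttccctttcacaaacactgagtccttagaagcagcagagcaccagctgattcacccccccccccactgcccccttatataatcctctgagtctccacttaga

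Gbp2, chr3:142620413-142620662, plus strand: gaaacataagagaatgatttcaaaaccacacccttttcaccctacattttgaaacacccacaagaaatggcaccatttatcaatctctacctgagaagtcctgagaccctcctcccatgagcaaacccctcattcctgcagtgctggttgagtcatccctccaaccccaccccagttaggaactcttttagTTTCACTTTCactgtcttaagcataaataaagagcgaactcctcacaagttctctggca

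Trim30a, chr7:104465194-104465443, minus strand: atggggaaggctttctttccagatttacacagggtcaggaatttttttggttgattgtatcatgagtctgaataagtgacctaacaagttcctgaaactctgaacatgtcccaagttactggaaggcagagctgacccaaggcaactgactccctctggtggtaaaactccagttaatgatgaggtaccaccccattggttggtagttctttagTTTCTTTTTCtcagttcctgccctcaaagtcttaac

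The motif stood in 12 of the 29 list members with a promoter in the table, 41.4%, against 3.50% of tested genes with a promoter. Counted by promoter, it stood in 2.98% of all promoters. The median change was -0.31 over the 12 members with the motif, of which 11 were lower, and -0.07 over the 17 without it, of which 13 were lower (-0.38 and -0.15 without wild type replicate 2). This split was made after the values were seen and was given no test. Ifit3, whose product blocks viral RNA translation together with its relatives, holds a pair of matches and differed by -0.86 (-0.82 without that array), but was not called.

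Gimap7 and Gimap6 are next to each other in the gene order of chromosome 6 and both fell. The Gimap genes encode GTPases of lymphocytes. Gimap7 read 10.14, 10.28 and 9.98 in wild type and 8.95, 9.01 and 9.19 in CD4-cre, a change of -1.09 (SE 0.14, adjusted p 0.0135), or 2.12-fold lower, and -1.01 without wild type replicate 2. Gimap6 read 10.76, 10.56 and 10.81 against 10.12, 10.25 and 10.25, a change of -0.50 (SE 0.09, adjusted p 0.0472; -0.58 without that array). All 5 tested members of the family were lower, with a median of -0.37 (-0.33 without wild type replicate 2), and 2 were called in both fits.

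Several receptors and surface proteins changed. Gpc1, a glypican that carries heparan sulfate, fell from 7.0, 7.65 and 7.0 to 6.0, 5.70 and 6.06. Its change of -1.29 (SE 0.19, adjusted p 0.0206) became -1.08 without wild type replicate 2, the highest of its arrays. Ccr9, the receptor that guides T cells to the gut, read 8.18, 8.32 and 8.30 against 7.61, 7.56 and 7.38, a change of -0.75 (SE 0.11, adjusted p 0.0193; -0.72 without that array). Ptger2, a receptor for prostaglandin E, changed by -0.75 (adjusted p 0.0180; -0.80), and Aqp9, a channel for water and glycerol, by -1.003 (adjusted p 0.0148; -1.06). Cd81, a tetraspanin, rose by 0.64 (adjusted p 0.0262; 0.56). Of 23 chemokine receptors and homing genes 1 fell with all arrays and 3 without wild type replicate 2, and 0 rose. Beside Ccr9 and Cxcr6 these were Ccr2, a receptor of memory T cells and monocytes, at -0.92 without that array (-0.75 with all arrays). Another Ccr2 probe set above the threshold gave 0.01 with all arrays and -0.16 without wild type replicate 2.

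The remaining genes of large change serve varied functions. Tmem267, a membrane protein, changed by -1.15 (adjusted p 0.00676; -1.22 without wild type replicate 2), Abcb9, a peptide transporter of lysosomes, by -0.97 (adjusted p 0.00894; -0.90), and Adh1, an alcohol dehydrogenase, by -0.76 (adjusted p 0.0429; -0.72). Cox18, which inserts a subunit of cytochrome oxidase into the inner mitochondrial membrane, rose from 7.55, 7.06 and 7.53 to 8.24, 8.12 and 8.28. Its change was 0.84 (SE 0.13, adjusted p 0.0262), and 0.68 without wild type replicate 2. Myb, a transcription factor of progenitor and activated T cells, rose by 0.57 (adjusted p 0.0351; 0.63 without that array), and its 2 other probe sets gave 0.71 and 0.84 (0.46 and 0.39 without wild type replicate 2). Pigb, an enzyme of lipid anchor synthesis, rose by 0.46 (adjusted p 0.0480; 0.49). Pisd-ps3 rose by 0.88 (adjusted p 0.0157; 0.95), but it is a pseudogene whose sequence resembles its parent gene, so its signal is uncertain.

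For Pik3cg, the catalytic subunit of PI3 kinase gamma, the probe sets disagreed. The brighter set, on which the gene was called, read 7.04, 6.86 and 6.83 in wild type and 7.67, 7.55 and 7.46 in CD4-cre, a change of 0.65 (SE 0.10, adjusted p 0.0193; 0.62 without wild type replicate 2). The other read 6.44, 6.50 and 6.49 against 5.66, 5.84 and 6.11, a change of -0.61 (-0.60). Both sets separated the groups, in opposite directions, so no direction is given for the gene. Among the 49 called genes 18 had other probe sets above the threshold, 23 sets in all. With all arrays 22 of these moved in the direction of the set used, 17 of them by at least 50% as much, and the Pik3cg set was the 1 exception. Without wild type replicate 2 the counts were 21 and 17, and the exceptions were Pik3cg and Smarca2, an ATPase of chromatin remodelling named here after its values were seen. The set used for Smarca2 gave -0.40 with all arrays and -0.43 without that array, its second set -0.10 and 0.22. The call of Tnfrsf9 below rests on 1 set, and the other set above the threshold gave -0.07 (-0.21). A further 25 called genes had a single probe set.

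Among enzymes that add or remove acetyl groups, 2 of 15 tested rose and 0 fell, in both fits. Of all genes tested 0.229% rose with all arrays and 0.753% without wild type replicate 2. Hdac1, a class I deacetylase of repressor complexes, read 8.96, 8.82 and 8.94 in wild type and 9.41, 9.35 and 9.29 in CD4-cre, a change of 0.44 (SE 0.08, adjusted p 0.0462). Hdac6, the cytoplasmic deacetylase of tubulin, read 7.0, 6.98 and 7.20 against 7.51, 7.49 and 7.49, a change of 0.44 (SE 0.08, adjusted p 0.0493). In neither gene did the groups overlap, and both changes were 0.40 without wild type replicate 2. Hdac1 lies on chromosome 4. Of the 9 fits that left out an array, Hdac1 stayed called in 1 and Hdac6 in 2. The median of the list was 0.10 in either fit, beside 0.03 for all genes tested (0.003 without wild type replicate 2). Of 11 tested sirtuins and NAD enzymes 0 were called in either fit, with a median of 0.10 that became 0.01 without wild type replicate 2.

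The Treg signature, 35 genes tested, had 0 called up and 1 called down, and 2 up and 2 down without wild type replicate 2. Tnfrsf9, the costimulatory receptor 4-1BB, read 8.89, 8.89 and 8.81 in wild type and 8.44, 8.39 and 8.40 in CD4-cre, a change of -0.45 (SE 0.08, adjusted p 0.0382; -0.44 without wild type replicate 2). Called only without that array were Ebi3, a subunit of interleukin-35, at 0.46, Tnfrsf4, the receptor OX40, at 0.43, and Fgl2, a secreted inhibitor, at -1.09. With all arrays Ebi3, Tnfrsf4 and Fgl2 gave 0.33, 0.37 and -0.75. The median was 0.12 in both fits, with 20 members higher and 15 lower (23 and 12 without that array). Of 20 genes of naive and conventional T cells, 15 were lower, with a median of -0.12 (-0.16 without wild type replicate 2), and Ccr9 was the 1 called with all arrays. Lef1, a transcription factor of naive T cells, gave -0.65 and Txk, a kinase of T cells, gave -0.85 in the fit without wild type replicate 2, where both were called. With all arrays Lef1 gave -0.42 and Txk -0.53.

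Genes of cell division were higher on the CD4-cre arrays without passing the test. All 34 tested genes of mitosis and the spindle had a higher mean in CD4-cre, with a median of 0.34, but 0 were called in either fit. For 19 of them the groups did not overlap, beside 11.9% of all genes tested in the higher direction. Without wild type replicate 2, 30 were higher and 4 lower, with a median of 0.25. Ttk, a checkpoint kinase of the spindle, differed most and read 5.28, 4.05 and 4.74 in wild type and 5.42, 5.42 and 5.40 in CD4-cre (0.73, adjusted p 0.305). Kif20a, a kinesin of cytokinesis, read 5.61, 4.44 and 5.01 against 5.58, 5.94 and 5.70 (0.72, adjusted p 0.343). For Ttk the lowest array was wild type replicate 2, without which the change was 0.41 (0.43 for Kif20a). Of 35 genes of DNA replication 32 were higher, with a median of 0.23 (0.19 without wild type replicate 2), and 0 were called in either fit. Over all genes tested, 56.3% were higher in CD4-cre, and 50.9% without wild type replicate 2.

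**Figure D4:**
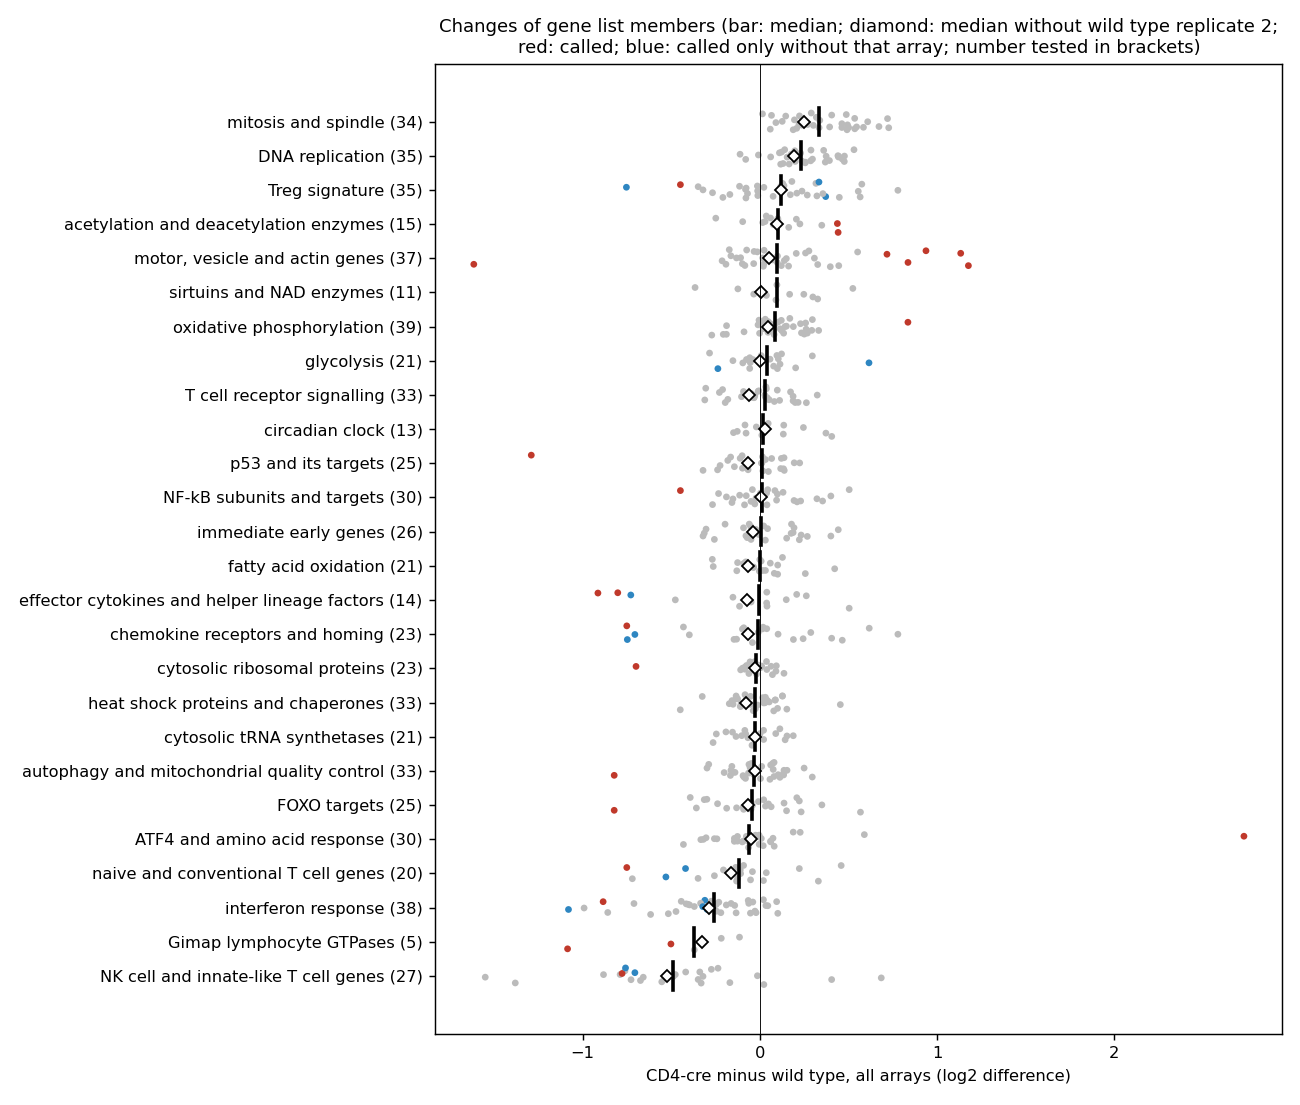
Change (CD4-cre minus wild type, log2, x axis) of each tested member of 26 gene lists, with the median over all arrays as a bar and the median without wild type replicate 2 as a diamond. The NK cell list and the Gimap family have the lowest medians (-0.49 and -0.37) and mitosis the highest (0.34), called members (red) are few, and Asns lies alone at 2.73.

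Few genes of signalling and metabolism were called. Of 25 p53 genes, Sfn was the 1 called, down, in both fits. The median of that list turned from 0.01 (14 higher, 11 lower) to -0.06 (10 higher, 15 lower) without wild type replicate 2. Of 30 NF-kB genes, Tnfrsf9 was the 1 called, also down, with a median of 0.01 in both fits. Of 25 FOXO targets Pink1 was the 1 called in both fits, with a median of -0.04 (-0.07 without that array). Pink1 was also the 1 called among 33 autophagy genes in both fits. In the list of 39 genes of oxidative phosphorylation Cox18 was the 1 called in both fits, 30 members were higher and the median was 0.08 (25 and 0.05 without that array). Glycolysis had 0 of 21 called with all arrays and 2 without wild type replicate 2, Aldoc, an aldolase, at 0.73 and Pfkfb3, which makes an activator of phosphofructokinase, at -0.47. With all arrays Aldoc gave 0.62 and Pfkfb3 -0.24. Of 23 ribosomal proteins Rps6 was the 1 called, with a change of -0.70 (adjusted p 0.0499; -0.55 without that array). The lists of fatty acid oxidation (21 tested), T cell receptor signalling (33), immediate early genes (26), heat shock proteins (33) and the circadian clock (13) had 0 called in either fit, while 1047 of the 7436 genes had an unadjusted p below 0.05 in limma with all arrays and 1608 without wild type replicate 2.

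The 142 genes called only without wild type replicate 2 were 39 rises and 103 falls. For 86 of them the groups did not overlap even with that array, and for 56 they overlapped once it was included. Among all genes tested 11.9% lay higher without overlap and 9.16% lower. In such an overlap the array could lie within the CD4-cre range, as for Fgl2 (5.86 against 5.65 to 5.97). It could also lie beyond that range, against the fall, as for Txk (6.73 against 6.81 to 6.89) and Pfkfb3 (5.68 against 5.90 to 5.94). The largest change of the 142 was that of Il1b, an inflammatory cytokine of myeloid cells. It read 7.69, 7.16 and 8.65 in wild type and 5.79, 5.85 and 6.35 in CD4-cre. Its groups did not overlap, and the change was -2.18 (SE 0.36, adjusted p 0.0256) without that array and -1.84 (adjusted p 0.0725) with it. Gcnt2, a glycan-branching enzyme, fell by 1.93, Ifitm1, an interferon-induced membrane protein, by 1.46, and Gpr34, a receptor for a lysophospholipid, by 0.93 in that fit. Lpin1, a phosphatidate phosphatase, fell by 0.87. With all arrays the changes of Gcnt2, Ifitm1, Gpr34 and Lpin1 were -1.46, -1.19, -0.65 and -0.81. The largest rises were Ocel1 at 1.09, Clstn1, a cadherin-like protein, at 0.79, Aldoc at 0.73 and 2610005L07Rik at 0.69. After them came Pfn2, a profilin that binds actin, at 0.60, Tspan4, a tetraspanin, at 0.59, 6330403K07Rik at 0.56 and Ubxn11 at 0.52. With all arrays Ocel1, Clstn1, Aldoc and 2610005L07Rik gave 0.94, 0.57, 0.62 and 1.07. Pfn2, Tspan4, 6330403K07Rik and Ubxn11 then gave 0.79, 0.45, 0.47 and 0.42. The probe sets of 2610005L07Rik disagreed, as its other set above the threshold gave -0.12 with all arrays and -0.05 without wild type replicate 2.

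Il1b fell beside mixed values of myeloid markers. Csf3r, the G-CSF receptor of neutrophils, read 7.91, 7.43 and 8.94 in wild type and 6.43, 6.31 and 6.94 in CD4-cre and was not called (-1.53, adjusted p 0.138; -1.87 without wild type replicate 2), whereas Camp and Mpo, granule proteins of neutrophil precursors, differed by 1.20 and 1.15 (1.23 and 1.47), not called either. Of 12 neutrophil markers 8 were higher and 4 lower, with 0 called. The mean of 11 monocyte and macrophage markers was 6.29 to 6.70 in wild type and 6.16 to 7.13 in CD4-cre, and the highest value belonged to CD4-cre replicate 3. For B cells 8 of 9 markers were higher, with 0 called. Their mean was 7.14, 7.43 and 6.88 on wild type replicates 1 to 3 and 7.40 to 7.47 in CD4-cre, so the groups overlapped through wild type replicate 2 alone. The difference of these means was 0.28 with all arrays and 0.42 without it. Their part in these changes was not tested.

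The Foxp3-cre knockout shares the wild type arrays with this comparison, so its values are given side by side and the test is the contrast between the knockouts. For 0 of the 49 called genes did that contrast pass with all arrays, where the smallest adjusted p was 0.0805, and of all 7436 genes 1 passed, Foxp3. Its probe set read 2.67, 3.38 and 2.83 in Foxp3-cre and 9.68, 9.69 and 9.62 in CD4-cre. Without wild type replicate 2 the contrast passed for 72 genes, 4 of them among the 49. Myo6 read 5.67, 5.53 and 5.36 in Foxp3-cre, above all CD4-cre arrays, with a difference of 1.38 between the knockouts (adjusted p 0.0805 with all arrays, 0.00648 without wild type replicate 2). Rab4a read 6.14, 6.10 and 5.73 there, below all CD4-cre arrays (adjusted p 0.0420 without that array). Cox18 (7.79, 7.70 and 7.61) was likewise below the CD4-cre arrays and Dennd2d (7.67, 7.67 and 7.63), named here after its value was seen, above them. Asns read 7.39, 7.35 and 7.64 in Foxp3-cre, and Sytl1 8.06, 8.35 and 8.26. Il4 read 5.06, 5.30 and 5.15 there, and Ifng 7.51, 7.27 and 7.40.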

How the data were processed

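Total RNA of 9 samples was hybridised to Affymetrix arrays, 3 per group. Deposited values are log2, 1 for every probe set and array, and come from RMA per the submitters' processing notes; RMA removes any change common to all genes and compresses those of dim probe sets. No label states its version. Of 22690 probe sets, 64 controls, 691 with several symbols and 1555 unnamed ones were left out. Of the 20380 with 1 symbol, 20351 matched a RefSeq gene table (GRCm38.p6) by gene ID. Each of 12393 genes took its brightest probe set, and the 7436 whose mean reached the 40th percentile (log2 4.979) were tested.

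Changes were tested, two-sided, by lmFit and eBayes of limma 3.58.1 (R 4.3.3) in 1 fit of 9 arrays and 3 groups (6 residual and 3.37 prior degrees of freedom), and in a second of 8 arrays without wild type replicate 2 (5 and 3.14), on the same genes. Genes were called where p, adjusted by Benjamini-Hochberg over all 7436, was below 0.05. Every adjusted p is limma's. The number of arrays limits the precision, and the median SE of a change was 0.11 (0.084 in the second fit). The design text calls the samples independent, but separate animals are named in no label, so the p-values speak only of the spread among these samples, and that may be technical. Exact permutation of 3 against 3 arrays reaches p = 0.1 at the least and was left out. The comparison, the 26 gene lists and the marker lists were chosen with earlier results of these data known, so lists are described by counts and medians and have no test.

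Named genes are the 15 largest called rises and falls without overlap, the 8 largest rises and falls called only without wild type replicate 2, Sirt1, Foxp3, Il2ra, Cd4, Ctla4 and Tnfrsf18, up to 4 called members of each list (or the 2 that changed most), marker genes, and neighbours of Sirt1. Other genes of a list were named as examples after their values were seen. The test was tried on simulated data. Alternatives left out each array, fitted 6 or 5 arrays, or changed the filter, the probe set rule, array weights, eBayes settings, centring and the replicate block.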

Additional observations from a re-analysis of the deposited data

How the results depend on the processing

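With 3 arrays a group, small changes are beyond reach, and the count of calls moved more than the values did. Of 1476 values of named genes under other settings, 1198 kept direction and side of the threshold, 171 lost the call, 100 gained it and 7 reversed; 0 of the 49 called genes reversed in any of the 18 settings. Of 468 list medians 32 moved by more than the spread between replicates. The 49 calls became 4 to 191 when each array was left out in turn, the high value being that without wild type replicate 2. They became 22 with the 6 compared arrays alone, 273 with those 6 less wild type replicate 2, 29 with the stricter filter at the 60th percentile, and 1298 with array weights, which gave wild type replicate 2 a weight of 0.082. The 191 calls without wild type replicate 2 became 17 to 519 when a further array was left out, and 121 with array weights; these alternatives were chosen after seeing the data. Where this left 1 wild type array, it was assumed to vary like the other groups. The contrast between the knockouts was called for 1 of 84 named genes, for 1 to 9 when each array was left out, 26 with array weights, 2 with arrays centred on their median and 6 with the replicate block. The reversed values belonged to genes that were not called. Sirt1 ran from -0.28 (without wild type replicate 2) to 0.29 (without wild type replicate 1) when an array was left out, and gave -0.28 in the fit of 5 arrays and -0.24 with array weights. Il2ra ran from -0.059 (without wild type replicate 1) to 0.029 (without wild type replicate 3), with 0.01 without CD4-cre replicate 1, and gave 0.10 with the mean of its probe sets. Ctla4 gave -0.0035 with array weights. Deviations of same-numbered wild type and CD4-cre arrays correlated at 0.116, -0.006 and 0.226, and those of differently numbered ones at -0.214 to 0.170. With so few arrays these values cannot settle whether same-numbered samples were paired. A replicate block gave 67 calls, 37 of them among the 49. The cause of these differences was not tested.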
